A study of Homo sapiens with 6 samples.

Results

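The genes described here write, copy or remove methyl marks on DNA, or methylate histone H3 on lysine 27 or lysine 9. They are DNMT1, DNMT3A, DNMT3B, UHRF1, TET1, TET2, TET3, EZH1, EZH2 and SUV39H1, which were chosen by name for their function, with earlier results of these data known. These 10 genes are members of a table of 21850 genes, and all 10 passed the filter on low counts, as did 13971 genes in all. RNA was sequenced from MM.1S cells, an established human multiple myeloma line, 3 days after lentiviral delivery of a hairpin RNA. The control group, shNT, carried a scramble hairpin (3 libraries). The other group, shPRKCN, carried a hairpin against PRKCN, the gene that human annotation calls PRKD3 and that encodes protein kinase D3 (3 libraries). Both groups are transduced pools of the same line, the labels name 1 PRKCN hairpin treatment, and nothing in the sources says that the libraries of a group came from separate cultures. The p-values below therefore measure the spread between these libraries, which may be technical.

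Methyl groups on cytosine are laid down de novo by DNMT3A and DNMT3B and are copied onto the new strand after replication by DNMT1, which UHRF1 brings to hemimethylated DNA. TET1, TET2 and TET3 oxidise the methyl group, the first step in removing it. EZH2 and EZH1 are alternative catalytic subunits of Polycomb repressive complex 2 (PRC2), which methylates lysine 27 of histone H3, with EZH2 known for dividing cells and EZH1 for resting ones. SUV39H1 trimethylates lysine 9 of histone H3 in heterochromatin. TET2 and DNMT3A are known as recurrently mutated genes in myeloid blood cancers, and EZH2 is a known drug target in lymphoma.

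Library totals ran from 35625564 to 37730003 counts. The targeted gene, PRKD3 (chr2:37250502-37324833, minus strand), stood at 1272, 1298 and 1216 CPM in shNT and at 535.0, 490.9 and 526.5 CPM in shPRKCN, so 41.0% of its level was left. CPM is the count relative to the library total, with totals scaled by the trimmed mean of M-values (TMM). The myeloma identity of the libraries was read from 10 plasma cell genes, whose summed FPKM (fragments scaled to gene length and library total) ran from 5868 to 5996 in shNT and from 5348 to 5576 in shPRKCN. JCHAIN, which joins antibody chains, carried most of that sum (mean 4136 and 4236 FPKM). Of the 10 plasma cell genes 4 were called lower (40.0%, against 10.6% of all tested genes). These were IRF4 (log2 fold change -1.85), XBP1 (-1.28), TNFRSF17 (-1.13) and SLAMF7 (-0.97, the fourth, named after its value was seen). At an adjusted p under 0.05, 6 were lower (against 27.8%) and 2 higher (against 26.5%), the latter SDC1 (0.18) and MAF (0.19). CD38 (-0.01) and JCHAIN (0.01) did not pass. The last 4 were also named after their values were seen. Of 14 genes of other cell types 11 were listed and 4 passed the filter on low counts, and the summed FPKM of the list was 14.8 to 17.8 in shNT and 23.2 to 25.9 in shPRKCN. The T cell gene CD3E was called higher, from 379 to 419 counts in shNT to 1021 to 1150 in shPRKCN. Its mean FPKM, 7.93 in shNT and 21.3 in shPRKCN, carried the rise of that sum. The B cell gene CIITA, at 951 to 2525 counts, was called lower (-1.32), as were HBB of red cells (-1.65, 35 to 145 counts) and PDGFRB of stromal cells (-1.07, 15 to 50 counts). The other listed genes, which were the B cell genes MS4A1 and PAX5, the T cell gene CD3D, the myeloid genes LYZ, CD14 and CSF1R and the fibroblast gene COL1A1, had at most 9 counts in any library. Levels of 15 genes that are high in replicating and dividing cells moved beside those of the genes described here. Their summed FPKM was 959.9 to 961.7 in shNT and 500.2 to 508.6 in shPRKCN. All 15 were lower at an adjusted p under 0.05, against 27.8% of all tested genes. The part of these shifts in the results below was not tested, and in bulk RNA fewer dividing cells and less RNA per cell cannot be told apart.

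EZH2, UHRF1 and SUV39H1 fell, TET2 rose by a fold just past the limit, and EZH1, DNMT3A and TET3 rose by less than the limit, while TET1 passed the adjusted p narrowly and DNMT1 and DNMT3B did not pass it. A gene was called when its adjusted p from edgeR's quasi-likelihood fit (Benjamini-Hochberg over the 13971 tested genes) was under 0.05 and its log2 fold change was beyond 0.58. By that rule 3 of the 10 genes were called lower, against 10.6% of all tested genes, and 1 was called higher, against 6.15%. On the adjusted p alone 4 were lower, against 27.8% of tested genes, and 4 were higher, against 26.5%. The 3 libraries of 1 group lay wholly below those of the other for 4 genes that were lower in shPRKCN, against 29.8% of tested genes, and for 4 that were higher, against 29.0%. Only DNMT3B and TET1 had groups that overlapped. The median log2 fold change of the 10 genes was -0.05, and that of all tested genes was 0.00.

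**Figure D1:**
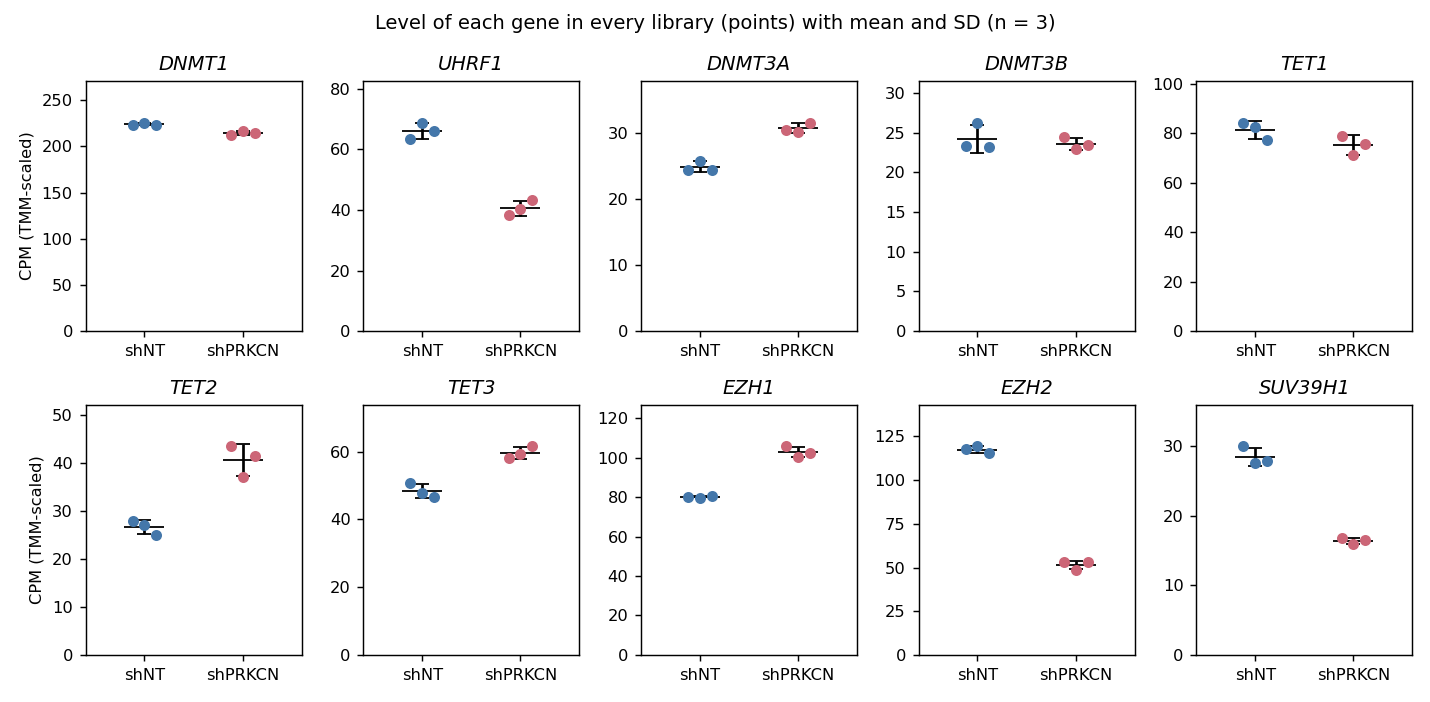
Level of each of the 10 genes in CPM, on library sizes scaled by the trimmed mean of M-values, with 1 point for each library and a bar for the mean and SD of 3 libraries; each panel starts at 0 and has its own scale. EZH2 falls from a mean of 117 to 51.6 CPM and TET2 rises from 26.7 to 40.7 CPM, while the points of DNMT3B and TET1 overlap between shNT and shPRKCN.

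The start of EZH2 transcription is shown first, because this gene changed most among the 10. The windows below run 5′ to 3′ on the gene's own strand, from 250 bases before to 50 bases after an annotated start (RefSeq, GRCh38.p14), and were cut for all 10 genes, which have 23 such windows between them. Capitals mark the letters of an E2F spelling (TTTCCCGC, TTTCGCGC, TTTGCCGC or TTTGGCGC) or of CCAAT, each searched on both strands. E2F proteins are known to drive genes of the replication phase, and the CCAAT box is bound by NF-Y. EZH2 and UHRF1 are shown as genes that fell and hold an E2F spelling, SUV39H1 as one that fell and holds none, DNMT1 as one that holds one and hardly moved, and EZH1 as one that holds one and rose.
EZH2, chr7:148884242-148884541, minus strand: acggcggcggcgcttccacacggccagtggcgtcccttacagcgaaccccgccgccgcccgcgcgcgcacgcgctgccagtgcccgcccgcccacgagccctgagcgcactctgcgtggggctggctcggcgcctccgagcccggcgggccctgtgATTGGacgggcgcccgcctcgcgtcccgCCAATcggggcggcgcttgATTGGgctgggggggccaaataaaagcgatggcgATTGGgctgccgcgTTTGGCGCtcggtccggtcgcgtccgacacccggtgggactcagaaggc
UHRF1, chr19:4909251-4909550, plus strand: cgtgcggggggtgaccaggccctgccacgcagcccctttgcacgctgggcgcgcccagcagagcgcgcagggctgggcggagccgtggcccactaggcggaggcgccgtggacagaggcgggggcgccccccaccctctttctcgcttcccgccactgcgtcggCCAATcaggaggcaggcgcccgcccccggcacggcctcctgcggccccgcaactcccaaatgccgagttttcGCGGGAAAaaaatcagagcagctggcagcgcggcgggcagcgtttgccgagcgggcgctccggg
SUV39H1, chrX:48696484-48696783, plus strand: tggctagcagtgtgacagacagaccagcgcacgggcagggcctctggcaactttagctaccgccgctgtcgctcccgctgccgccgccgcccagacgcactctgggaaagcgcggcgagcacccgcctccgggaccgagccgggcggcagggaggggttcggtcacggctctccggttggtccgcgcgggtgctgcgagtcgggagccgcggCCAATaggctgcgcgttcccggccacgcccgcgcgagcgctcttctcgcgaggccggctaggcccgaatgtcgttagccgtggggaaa
DNMT1, chr19:10194904-10195203, minus strand: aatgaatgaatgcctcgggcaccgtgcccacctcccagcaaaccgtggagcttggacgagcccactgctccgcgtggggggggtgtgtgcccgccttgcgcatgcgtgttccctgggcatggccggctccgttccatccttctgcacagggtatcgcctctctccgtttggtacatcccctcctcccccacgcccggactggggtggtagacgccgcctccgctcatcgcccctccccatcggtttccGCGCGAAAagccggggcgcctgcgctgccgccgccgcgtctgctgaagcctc
EZH1, chr17:42744991-42745290, minus strand: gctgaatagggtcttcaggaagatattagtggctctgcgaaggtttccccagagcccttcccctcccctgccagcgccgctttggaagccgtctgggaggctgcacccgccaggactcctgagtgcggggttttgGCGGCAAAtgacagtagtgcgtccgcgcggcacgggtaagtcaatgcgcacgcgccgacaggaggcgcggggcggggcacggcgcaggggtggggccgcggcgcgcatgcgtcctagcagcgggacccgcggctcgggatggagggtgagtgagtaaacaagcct
EZH2, UHRF1 and SUV39H1 have more than 1 window, and 1 of each is printed. The printed EZH2 window held TTTGGCGC from 2 bases after the start and 4 CCAAT boxes, and its other window held neither. The printed UHRF1 window held GCGGGAAA, the reverse complement of a listed spelling, from 14 bases before the start. Of the UHRF1 windows not printed, 1 held TTTCGCGC from 160 bases before its start and 1 held no E2F spelling. The DNMT1 window held GCGCGAAA from 2 bases before the start, and the EZH1 window held GCGGCAAA from 115 bases before it. In all, 4 of the 10 genes had an E2F spelling in at least 1 of their windows, against 6.74% of the 11035 tested genes that have a window and 3.31% of all 35116 windows. Of those 4 genes EZH2 and UHRF1 fell, EZH1 rose and DNMT1 did not pass the test. By window the E2F spellings were in 5 of the 23. CCAAT was found in 6 of the 10 genes, against 43.4% of tested genes, and in 8 of their 23 windows, against 34.6% of all windows, which is near the background. The spelling TTTGAA, known as the CHR element of cell cycle genes, was in 2 of the 10 genes, DNMT3A and TET2, against 13.8% of tested genes, and in 2 of the 23 windows, against 15.2% of all windows. These matches describe letters and were not tested as binding sites. The background shares were not matched for the number of windows per gene or for the content of G and C.

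EZH2 (chr7:148807383-148884291, minus strand), the PRC2 subunit of dividing cells, had 118, 119 and 115 CPM in shNT and 52.9, 48.8 and 52.9 CPM in shPRKCN. Every shPRKCN library was far below every shNT library. The mean fell from 117 ± 2.01 to 51.6 ± 2.39 CPM (SD, n = 3 libraries), which left 43.9% of the level, a log2 fold change of -1.19 (SE 0.044, 95% interval -1.28 to -1.10, edgeR adjusted p 1.6e-34). Among all tested genes EZH2 moved from the percentile 79.7 of FPKM to the percentile 62.3.

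EZH1 (chr17:42700275-42745040, minus strand), its counterpart, had 80.2, 79.8 and 80.4 CPM in shNT and 105.7, 100.3 and 102.6 CPM in shPRKCN. The groups did not overlap, and the shNT libraries were very close to each other. The log2 fold change was 0.36 (SE 0.042, 95% interval 0.28 to 0.44, edgeR adjusted p 2.1e-11), a rise that stayed under the fold limit. On the FPKM scale, which divides by gene length, EZH2 at 18.4, 18.8 and 18.1 stood just above EZH1 at 17.0, 17.0 and 17.1 in shNT. In shPRKCN EZH2 stood at 8.47, 7.67 and 8.48 FPKM and EZH1 at 22.9, 21.3 and 22.3. The order of the pair thus turned over, from a ratio of EZH2 to EZH1 between 1.06 and 1.10 in FPKM to a ratio between 0.359 and 0.381. The difference of the log2 ratio was -1.55. An exact two-sided permutation test of that ratio gave p = 0.1, which is the smallest value that 3 libraries against 3 allow, and it was 0.1 after adjustment over the 5 ratios examined here.

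The sum of EZH1 and EZH2 was lower in every shPRKCN library than in any shNT library. It was 35.5, 35.8 and 35.2 FPKM in shNT and 31.4, 29.01 and 30.8 FPKM in shPRKCN, with a mean of 35.5 ± 0.293 against 30.4 ± 1.22 (SD, n = 3 libraries). EZH1 made up 48.0% of the sum in shNT and 73.0% in shPRKCN. A sum or ratio across genes depends on the 1 length per gene that the FPKM values imply, 6324 bases for EZH2 and 4671 for EZH1, whereas the change of a ratio between groups does not.

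SUV39H1 (chrX:48695554-48709016, plus strand), the lysine 9 methyltransferase, had 30.0, 27.6 and 27.8 CPM in shNT and 16.8, 15.9 and 16.6 CPM in shPRKCN. The groups lay well apart, with every shPRKCN library lower. The mean fell from 28.5 ± 1.30 to 16.4 ± 0.45 CPM (SD, n = 3 libraries), a log2 fold change of -0.79 (SE 0.069, 95% interval -0.93 to -0.66, edgeR adjusted p 3.4e-16). Its exons share 685 bases with an antisense gene, AC231533.1 (GENCODE 29, GRCh38), which is not listed in the table. Whether the counting used strand is not given in the sources used here, so reads of the pair may be joined.

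UHRF1 (chr19:4903080-4962154, plus strand), the reader of hemimethylated DNA that brings in DNMT1, had 63.4, 68.8 and 66.1 CPM in shNT and 38.2, 40.3 and 43.2 CPM in shPRKCN. The highest shPRKCN library was still far under the lowest shNT library. The mean fell from 66.1 ± 2.69 to 40.6 ± 2.52 CPM (SD, n = 3 libraries), a log2 fold change of -0.70 (SE 0.051, 95% interval -0.81 to -0.60, edgeR adjusted p 1.4e-19). Of the 50-base stretches in its exons 21.1% also occur in the exons of other annotated genes, mostly AC112777.1, so its level carries an uncertainty from how such reads were counted.

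DNMT1 (chr19:10133346-10194953, minus strand), the maintenance methyltransferase, was the most abundant of the 10 genes in both groups. It had 223.2, 225.6 and 223.5 CPM in shNT and 212.0, 216.3 and 214.1 CPM in shPRKCN. Each shPRKCN library was a little lower than each shNT library, yet the log2 fold change was -0.07 (SE 0.035, 95% interval -0.14 to 0.00) and did not pass the test (edgeR adjusted p 0.107). The interval leaves room for a small fall and for none. UHRF1 and DNMT1 are partners in the copying of methylation, and their ratio in counts went from 0.284, 0.305 and 0.296 to 0.180, 0.186 and 0.202. The log2 ratio of UHRF1 to DNMT1 was lower by 0.64 in shPRKCN with no overlap (exact two-sided permutation p = 0.1, the smallest possible, adjusted 0.1 over 5 ratios). DNMT1 shares 83 exon bases on its own strand with S1PR2, which had 1067 to 1523 counts per library.

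DNMT3A (chr2:25227874-25342590, minus strand), a de novo methyltransferase, had 24.5, 25.9 and 24.4 CPM in shNT and 30.5, 30.2 and 31.6 CPM in shPRKCN. All shPRKCN libraries were higher than all shNT libraries. The log2 fold change was 0.30 (SE 0.062, 95% interval 0.18 to 0.43, edgeR adjusted p 2.3e-05), under the fold limit.

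DNMT3B (chr20:32762385-32809356, plus strand), the other de novo methyltransferase, had 23.25, 26.24 and 23.16 CPM in shNT and 24.45, 22.97 and 23.38 CPM in shPRKCN. The groups overlapped, and the highest and lowest libraries lay in shNT and shPRKCN respectively. The log2 fold change was -0.04 (SE 0.067, 95% interval -0.17 to 0.10, edgeR adjusted p 0.667), and without shNT replicate 2 it was 0.03. The ratio of DNMT3A to DNMT3B in counts was 1.05, 0.986 and 1.06 in shNT and 1.25, 1.31 and 1.35 in shPRKCN, a log2 difference of 0.34 with no overlap (exact two-sided permutation p = 0.1, the smallest possible, adjusted 0.1 over 5 ratios). The summed FPKM of DNMT1, DNMT3A and DNMT3B was 49.4 ± 0.772 in shNT and 48.5 ± 0.359 in shPRKCN (SD, n = 3 libraries), of which DNMT1 made up 85.4% and 84.2%.

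TET2 (chr4:105145875-105279803, plus strand), a methylcytosine dioxygenase, had 27.9, 27.2 and 25.1 CPM in shNT and 43.5, 37.1 and 41.5 CPM in shPRKCN. The groups did not overlap, and the shPRKCN libraries were spread more widely than the shNT ones. The mean rose from 26.7 ± 1.48 to 40.7 ± 3.28 CPM (SD, n = 3 libraries), a log2 fold change of 0.61 (SE 0.060, 95% interval 0.49 to 0.73, edgeR adjusted p 8.2e-14). The interval spans the fold limit, and the call was lost on the fold without shNT replicate 3 (0.56) and without shPRKCN replicate 1 (0.56), with the adjusted p still under 0.05 in both.

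TET3 (chr2:73983631-74135498, plus strand) had 50.8, 48.0 and 46.7 CPM in shNT and 58.2, 59.25 and 61.6 CPM in shPRKCN. Like TET2 it was higher in every shPRKCN library than in any shNT library. The log2 fold change was 0.30 (SE 0.049, 95% interval 0.20 to 0.40, edgeR adjusted p 3.7e-07), under the fold limit. The log2 ratio of TET3 to TET2 was lower by 0.30 in shPRKCN with no overlap (exact two-sided permutation p = 0.1, the smallest possible, adjusted 0.1 over 5 ratios).

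TET1 (chr10:68560337-68694487, plus strand), the family member with the highest FPKM here, had 84.3, 82.7 and 77.4 CPM in shNT and 79.0, 71.1 and 75.7 CPM in shPRKCN. The highest shPRKCN library lay above the lowest shNT library. The log2 fold change of -0.11 (SE 0.046, 95% interval -0.21 to -0.02) passed the adjusted p only narrowly (edgeR adjusted p 0.0295). The adjusted p was 0.05 or more in 9 of 16 alternative fits that tested against no change, among them DESeq2 at 0.0729. Its range over the 16 was 0.00761 to 0.295. Leaving out shNT replicate 1 gave 0.155, shNT replicate 2 gave 0.111, shPRKCN replicate 2 gave 0.192 and shPRKCN replicate 3 gave 0.0783. The summed FPKM of the 3 TET genes was 9.79 ± 0.432 in shNT and 11.2 ± 0.565 in shPRKCN (SD, n = 3 libraries) with no overlap. The share of TET1 in that sum went from 49.0% to 40.0%, that of TET2 from 17.7% to 23.8% and that of TET3 from 33.3% to 36.2%.

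**Figure D2:**
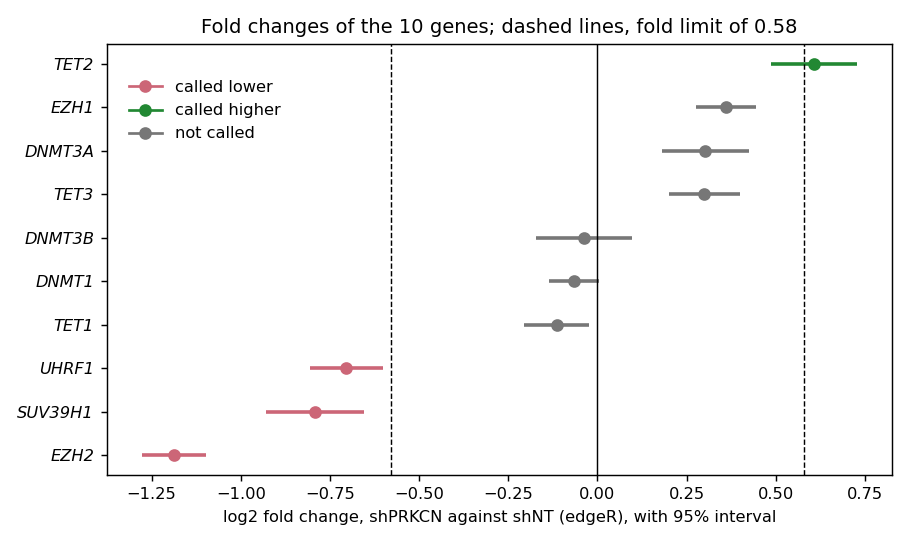
Log2 fold change of each of the 10 genes in shPRKCN against shNT (points) with its 95% interval (lines) from the edgeR fit; dashed lines mark the fold limit of 0.58. EZH2, SUV39H1 and UHRF1 lie wholly beyond the lower limit, the interval of TET2 (0.49 to 0.73) crosses the upper limit, and those of DNMT1 and DNMT3B include 0.

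Levels between genes were compared on the FPKM scale. In shNT the order was DNMT1 (mean 42.1), EZH2 (18.4), EZH1 (17.0), UHRF1 (12.9), SUV39H1 (9.25), DNMT3B (5.19), TET1 (4.80), TET3 (3.26), DNMT3A (2.04) and TET2 (1.73), and no neighbours overlapped. In shPRKCN it was DNMT1 (40.8), EZH1 (22.2), EZH2 (8.21), UHRF1 (8.05), SUV39H1 (5.41), DNMT3B (5.13), TET1 (4.50), TET3 (4.06), TET2 (2.67) and DNMT3A (2.55). There EZH2 overlapped with UHRF1, SUV39H1 with DNMT3B, TET1 with TET3 and TET2 with DNMT3A. The places that turned over were those of EZH2 with EZH1 and of TET2 with DNMT3A, the latter within the spread of the shPRKCN libraries. The order of TET2 and DNMT3A also depends on the gene lengths that FPKM implies, 15331 and 12146 bases. In counts TET2 already stood above DNMT3A in every shNT library (986, 1000 and 939 against 865, 951 and 915).

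The other genes of these pathways were read from 8 lists with 84 genes, of which 82 were tested. Of these, 14 were called lower (17.1%, against 10.6% of all tested genes) and 1 was called higher (against 6.15%). On the adjusted p alone 37 were lower (45.1%, against 27.8%) and 18 of the 82 higher (a share under the 26.5% of all tested genes), with a median log2 fold change of -0.10. Partners of DNMT1, UHRF1 and the DNMT3 enzymes showed 4 of 12 genes called lower (33.3%, against 10.6% of all tested genes) and none higher (against 6.15%). The lowest were PCLAF, a clamp-bound factor of replicating DNA (-1.04), HELLS, a remodeller needed for DNA methylation (-0.96), and LIG1, the replicative ligase (-0.79). The fourth was PCNA (-0.75), the replication clamp, which is also on the list of replication genes and was named after its value was seen. Of 8 genes of methyl-CpG-binding protein families, 1 was called lower (12.5%), MBD2 (-0.63). Of 14 genes of oxidation and demethylation beside the TET genes, 2 were called lower (14.3%), GADD45B (-0.68) and GADD45G (-2.0), the latter at 55, 42 and 68 counts in shNT and 23, 6 and 13 counts in shPRKCN. Both shares lie near the 10.6% called lower among all tested genes.

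Among the other PRC2 subunits 8 of 11 tested genes were lower on the adjusted p (72.7%, against 27.8% of all tested genes). On the same measure 1 was higher (against 26.5%). By the call, 2 were lower (18.2%, against 10.6%). These were PHF19 (-0.96) and PHF1 (-0.67), accessory subunits that read lysine 36 methylation. The core partners of EZH2 and EZH1 moved less, with a log2 fold change of -0.21 for EED (edgeR adjusted p 0.0020) and of -0.35 for SUZ12 (edgeR adjusted p 2.9e-12), and JARID2, an accessory subunit, was the 1 that rose (0.43, edgeR adjusted p 5.9e-14). These 3 were named after their values were seen. Of 11 genes of lysine 27 demethylation and Polycomb repressive complex 1, 2 were called lower (18.2%, against 10.6% of all tested genes). They were CBX7 (-0.80), a reader of the mark, and PCGF2 (-2.05, at 40, 39 and 55 counts in shNT and 11, 6 and 16 in shPRKCN).

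Of 13 other lysine 9 methyltransferases and heterochromatin proteins, 1 was called lower (7.69%, against 10.6% of all tested genes). It was CBX5 (-0.64), the HP1 alpha protein that binds the mark of SUV39H1. On the adjusted p 3 of the 13 were lower (23.1%, against 27.8% of all tested genes) and 5 higher (38.5%, against 26.5%). SUV39H2, the closest relative of SUV39H1, had a log2 fold change of -0.17 and did not pass (edgeR adjusted p 0.0768, named after its value was seen). Of 6 lysine 9 demethylases 2 were called lower (33.3%, against 10.6%), KDM3A (-0.74) and KDM4B (-0.64). The replication genes gave 12 of 15 called lower (80.0%, against 10.6%), with a median of -0.955, led by RRM2 (-1.96), CCNA2 (-1.49) and MKI67 (-1.33). EZH2, at -1.19, thus lay below the median of that list, and UHRF1 and SUV39H1 lay above it.

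**Figure D3:**
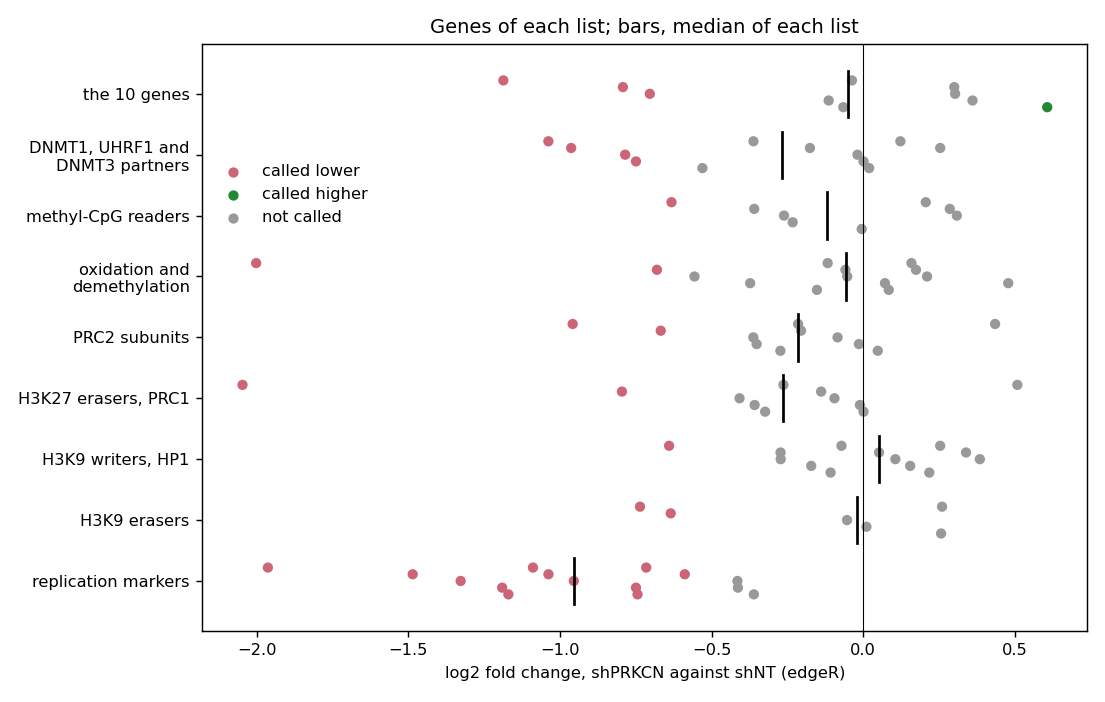
Log2 fold change in shPRKCN against shNT (edgeR) of each tested gene, 1 row of points for each list, with a bar at the list's median; red points were called lower, green points higher and grey points were not called. The 10 genes spread to both sides of 0 with a median of -0.05, whereas all 15 replication genes lie below 0.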

How the data were processed

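Total RNA of 6 MM.1S libraries was sequenced, and the authors deposited a table of counts per gene and a table of FPKM values of the same genes. Per the labels the submitters' processing notes name FastQC, HISAT2 and StringTie and the build GRCh38.p14, without roles or versions. The annotation and the strand setting are not given in the sources used here. Libraries were grouped by the treatment in their labels. Counts were filtered with filterByExpr, scaled by TMM and tested with edgeR 4.0.16 (glmQLFit and glmQLFTest, R 4.3.3), with Benjamini-Hochberg adjustment over all tested genes. A standard error is the log2 fold change divided by the square root of F. CPM uses TMM-scaled library sizes. Ratios of 2 genes were compared by exact permutation of the libraries. Alternatives were DESeq2 1.42.0, other scalings and filters, a replicate block, each library left out, limma 3.58.1 on log2(FPKM + 1) or log2(FPKM + 0.1), no fold limit and glmTreat. The scripts were tested on simulated data.

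Replicates of a group differed by 3.38 to 4.80 chi-square units per degree of freedom and groups by 63.8 to 70.2, and no library repeated another. Gene positions and windows at start sites were taken from RefSeq (GRCh38.p14), in which all 10 symbols matched, and shared bases from GENCODE 29 (GRCh38). The genes described and the lists were chosen with earlier results of these data known. The text names each of the 10 genes, the targeted gene and, from each list, at most 3 called genes per direction by size of change; exceptions are stated, and 1 list and its called gene are not reported here. Intervals cover the spread between these libraries.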

Additional observations from a re-analysis of the deposited data

How the results depend on the processing

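EZH2, UHRF1 and SUV39H1 were called lower under each alternative, and no call changed its direction. The log2 fold change of EZH2 ranged from -1.21 to -1.08 over the alternatives, that of UHRF1 from -0.75 to -0.62 and that of SUV39H1 from -0.81 to -0.68. The 1 gene called higher, TET2, depended on the fold limit. The count of the 10 genes called higher was 0 with limma on log2(FPKM + 1), also when kept to genes that reach an FPKM of 1 in 3 libraries. It was 0 with glmTreat against 0.58, 4 with no fold limit, and 0 to 1 when 1 library was left out. Calls higher among all tested genes moved as well, from 859 of 13971 in the main fit. They were 317 of 13971 and 310 of 10538 in those limma fits and 339 of 13971 with glmTreat. With no fold limit they were 3700 of 13971, and with 1 library left out 815 to 874. With no fold limit 37 of the 82 other pathway genes were lower (against 27.8% of all tested genes) and 18 higher (against 26.5%). The rise of EZH1, DNMT3A and TET3 kept an adjusted p under 0.05 in the 16 alternative fits that tested against no change but not in glmTreat, which tests against the fold limit (adjusted p 1 for each), and DNMT1 and DNMT3B stayed at 0.05 or more in all 16 and in glmTreat. The same replicate numbers in both groups did not pair the libraries (correlations of deviations -0.04, -0.01 and 0.00). With a replicate block 3 of the 10 genes were called lower and 1 higher, with 14 and 1 among the 82 other pathway genes. Of all 13971 tested genes that fit called 1463 lower and 854 higher. Depth did not limit the 10 genes, which had 592 to 8369 counts per library, but 3 libraries a group held every exact test of a ratio at p = 0.1 or more.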

Other observations

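Genes known as targets of silencing by DNA methylation or by Polycomb were mostly not listed, or had too few counts in both groups to be tested. Of 18 germline genes 9 were listed and 3 passed the filter on low counts, and of 24 HOX genes 16 were listed and 3 passed. MAGEA1, a cancer-testis antigen, had 1705 to 1883 counts in shNT, and HOXB7 had 135 to 164. Their log2 fold changes were -0.68 and -0.67, both called lower. PAGE5, another cancer-testis gene, had 0.99 at 17 to 24 counts in shNT and 38 to 44 counts in shPRKCN (edgeR adjusted p 0.016). The germline gene SYCP3, at 1540 to 1642 counts in shNT, was lower by less than the fold limit (-0.48, edgeR adjusted p 7.4e-11). HOXB3 (0.07, edgeR adjusted p 0.354) and HOXB4 (-0.13, edgeR adjusted p 0.157) did not pass. These last 3 were named after their values were seen. With 3 tested genes a list, no group direction was read.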
